A study of Homo sapiens with 24 samples.

Results

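The BCL2 family governs whether a cell's mitochondria release the proteins that start apoptosis, and 10 of its genes were followed here in diffuse midline glioma (DMG) cells given an inhibitor of PRMT5. These genes were chosen by symbol: BCL2, BCL2L1, BCL2L2, MCL1, BCL2L11, BAK1, BID, BAD, BIK and BMF. They are members of the family that were not on the p53 target list used for the choice. Whether other lists name them as p53 targets was not examined. All 10 were found among the 58676 genes of the count table. The established DMG cell line used was HSJD-DIPG-007, whose label lists H3F3A K27M, ACVR1 R206H and PIK3CA MIS, so every library of both groups carries these alleles. The cells were grown as spheroids and received vehicle or LLY-283, a small molecule that occupies the S-adenosylmethionine pocket of the methyltransferase PRMT5, at the concentration that inhibits growth by 40%. The labels give 1 dose, and the methods of the study add that the medium was exchanged after 5 days and dosed again as before.

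Poly(A) RNA was sequenced in 24 libraries, 12 from each treatment group. Per group there were 3 libraries for day 0, 3 for day 5, 2 for day 7 and a single one for days 1, 2, 3 and 10. The study describes the libraries of a group as technical repeats of a single cell line, so the p-values measure the spread between these libraries, which may be less than that between independent cultures. Because the RNA is from bulk cultures, a smaller number of cells that express a gene and less RNA per cell cannot be told apart.

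Apoptosis through mitochondria is set by the balance between 3 classes of BCL2 protein. Guardians such as BCL2, BCL-XL (from BCL2L1), BCL-W (from BCL2L2) and MCL1 hold the pore-forming effectors BAK and BAX in check on the outer mitochondrial membrane. The BH3-only proteins, among them BIM (from BCL2L11), BMF, BID, BAD and BIK, occupy the groove of the guardians, and BIM and the cleaved form of BID can also activate the effectors directly. Gliomas are known often to depend on MCL1 and BCL-XL, and the guardians are the targets of the BH3 mimetic drugs. Much of the control of this family acts on the proteins, by phosphorylation, cleavage and degradation, and on splicing. The counts here are sums over all transcripts of a gene, so they give neither protein levels nor the share of long and short isoforms of MCL1, BCL2L1 or BCL2L11.

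The genes lie on 9 chromosomes of GRCh38, with 2 of them, BID and BIK, on chromosome 22. BCL2 occupies chr18:63123346-63320128 on the minus strand, BCL2L11 occupies chr2:111119378-111168444 on the plus strand and BMF occupies chr15:40087890-40108892 on the minus strand. Counts of some members can be shared with other genes. BCL2L2 has exons in common with the read-through gene BCL2L2-PABPN1 on the same strand, MCL1 overlaps ADAMTSL4-AS1 on the same strand, and 7 members overlap exons of a gene on the opposite strand, which are BCL2L1, BCL2L2, MCL1, BCL2L11, BAK1, BAD and BMF. BAK1 also has 2 pseudogene copies in the annotation, BAK1P1 and BAK1P2. Whether the counting used strand is not given in the sources used here. BCL2, BID and BIK overlap no exon of another gene.

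BCL2L11 and BMF are the members whose RNA was higher with LLY-283 at day 5, and the sequences before their start sites are therefore shown. The windows come from a set made from RefSeq start sites on GRCh38.p14. The set used here held 1 or more windows for 7 of the 10 members, and none for BCL2L2, MCL1 and BIK. That is a limit of this set and not of RefSeq. Each is written 5′ to 3′ on the strand of the gene, with matches to 3 motifs in capitals, sought on both strands: the core of the FOXO site (GTAAACA), the GC box (GGGCGG) and the CCAAT box (CCAAT). The BCL2L11 window is the 250 bases before the start site, at chr2:111120664-111120913, and the BMF window is the 237 of 250 bases that lie outside annotated exons, at chr15:40108893-40109129.
BCL2L11: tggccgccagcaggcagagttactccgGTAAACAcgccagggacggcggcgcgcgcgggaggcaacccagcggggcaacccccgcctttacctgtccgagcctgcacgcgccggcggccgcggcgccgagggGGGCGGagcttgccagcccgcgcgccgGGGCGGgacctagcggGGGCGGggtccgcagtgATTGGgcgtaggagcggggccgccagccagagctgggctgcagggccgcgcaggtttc
BMF: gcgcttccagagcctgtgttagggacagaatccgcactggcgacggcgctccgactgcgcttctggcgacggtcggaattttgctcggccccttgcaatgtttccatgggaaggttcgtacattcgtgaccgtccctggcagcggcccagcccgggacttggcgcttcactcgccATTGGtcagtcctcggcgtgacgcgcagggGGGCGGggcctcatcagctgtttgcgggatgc

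The BCL2L11 window holds the FOXO core at position -223 from the start site, GC boxes at -118, -91 and -75, and a CCAAT box on the opposite strand at -58. The BMF window shown holds a CCAAT box on the opposite strand at -75 and a GC box at -45, and that of a second BMF start site, at chr15:40106967-40107216 and not printed, holds none of the 3 motifs. Of all 35116 windows in the set, 2.98% hold the FOXO core, 42.6% the GC box and 32% the CCAAT box. Among the 14 windows of the 7 members, that of BCL2L11 alone holds the FOXO core. FOXO factors are known activators of BCL2L11, and the motifs were chosen with the results known; a match of letters is a description and was not tested as a binding site.

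Library totals lay between 13835205 and 23190369 counts. At day 7 the labels and the data go apart: the 2 libraries labelled repeat 2 lay on the side of the opposite treatment group for several genes below, and the repeats of a group differed from each other by a chi-square of 11.2 and 13.4 per degree of freedom, against 1.65 to 3.79 within the groups of days 0 and 5. Day 7 values are given by label, and tests that hold day 7 libraries are given with and without these 2.

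Cell type markers were summed as counts scaled to the library total (CPM). Of 10 glioma marker genes, 9 were detected, among them OLIG2 and SOX2, and SOX10 was under 1 CPM in all 24 libraries. At day 5 the sum of the 10 was 8460 to 8750 CPM in vehicle and 9240 to 9380 CPM in LLY-283. That of the neuron markers RBFOX3, SNAP25 and SYT1 was 53.1 to 54.5 and 68.1 to 71.2 CPM. Both sums were thus higher with LLY-283 in groups that did not overlap. PTPRZ1, NES and CSPG4 had the highest levels of the glioma list (medians of 2990, 2380 and 1240 CPM), so its sum does not give the direction of the other genes. Of the neuron markers SYT1 reached 44.7 to 73.8 CPM, RBFOX3 at most 2.31 CPM, and SNAP25 was under 1 CPM throughout. Of 4 endothelial markers, VWF, CDH5 and CLDN5 were under 1 CPM in every library, and PECAM1 was at 4.28 to 25 CPM, with the list at 25.5 CPM in vehicle and 11.9 CPM in LLY-283 at day 10. Of 5 macrophage and microglia markers, PTPRC, AIF1, CSF1R and CD14 were under 1 CPM throughout and CD68 reached 1.14 CPM. The sum of 10 fibroblast markers was 192 to 206 CPM at day 0 in both groups, 197 to 362 CPM in vehicle and 287 to 295 CPM in LLY-283 at day 5, 302 and 294 CPM in LLY-283 at days 2 and 3, and 240 CPM in vehicle and 364 CPM in LLY-283 at day 10, with THY1 (101 to 173 CPM), POSTN (11.9 to 145 CPM) and LUM (15 to 42.3 CPM) among its highest genes. Within that list, the summed level of the matrix genes COL1A1, COL1A2, COL3A1 and FN1 was 157 CPM in repeat 3 of vehicle at day 5, 81.6 CPM in repeat 1 of vehicle at day 7 and 81.3 CPM in LLY-283 at day 2, against 7.37 to 17.6 CPM in the other 21. The share of counts from mitochondrial genes was 2.73% to 3.07% in vehicle and 3.21% to 3.88% in LLY-283 at day 5, and 4.54% to 5.4% at day 0 in both groups. The part of these marker levels and of the mitochondrial share in the results was not tested.

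Levels are given as CPM, a gene's counts scaled to the library total after TMM normalization, and between genes they are compared per kilobase of the canonical transcript. MCL1 had the highest level per length of the 10 members. In vehicle at day 5 it stood at 109 ± 0.329 CPM per kb (SD, n = 3), followed by BAD at 29.4 ± 2.79, BID at 21.4 ± 1.84, BCL2L1 at 19.8 ± 1.02 and BAK1 at 14.4 ± 0.267. BCL2L11 at 5.55 ± 0.428 and BCL2L2 at 5.51 ± 0.463 came next, then BCL2 at 2.9 ± 0.023, BMF at 0.718 ± 0.106 and BIK at 0.182 ± 0.0943. The ranges of BID and BCL2L1 overlapped, as did those of BCL2L11 and BCL2L2, so neither pair can be ordered. With LLY-283 at day 5 the order was the same, and the libraries of BCL2L11, at 7.18 to 7.41, then lay above those of BCL2L2, at 5.98 to 6.45 CPM per kb. Per length of all annotated exons instead of the canonical transcript, BAK1 took the third place and BID the fifth in both groups.

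**Figure D1:**
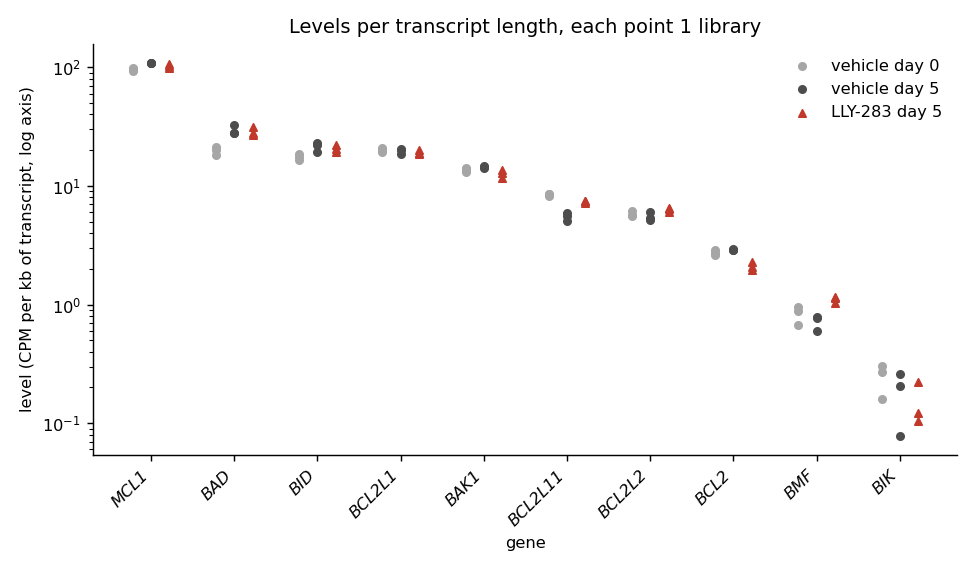
Level of each of the 10 members in CPM per kb of canonical transcript on a log axis, with 1 point per library for vehicle at day 0, vehicle at day 5 and LLY-283 at day 5. MCL1 lies above every other gene, BCL2 is the lowest of the 4 guardians, and BMF and BIK are at the bottom.

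Across the 24 libraries most members moved little. The highest library exceeded the lowest by 1.36 to 1.55 times for BCL2L2, MCL1, BAK1, BID, BCL2L1 and BCL2, by 1.8 times for BCL2L11, by 1.86 times for BAD and by 3.28 times for BMF, which had only 32 to 107 counts per library. BIK, a BH3-only protein of the endoplasmic reticulum, had between 0 and 7 counts in each library. It had 0 counts in LLY-283 at day 3, which allows a level of up to 0.166 CPM, and it did not pass the filter on low counts in any comparison, so 9 members were tested.

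**Figure D2:**
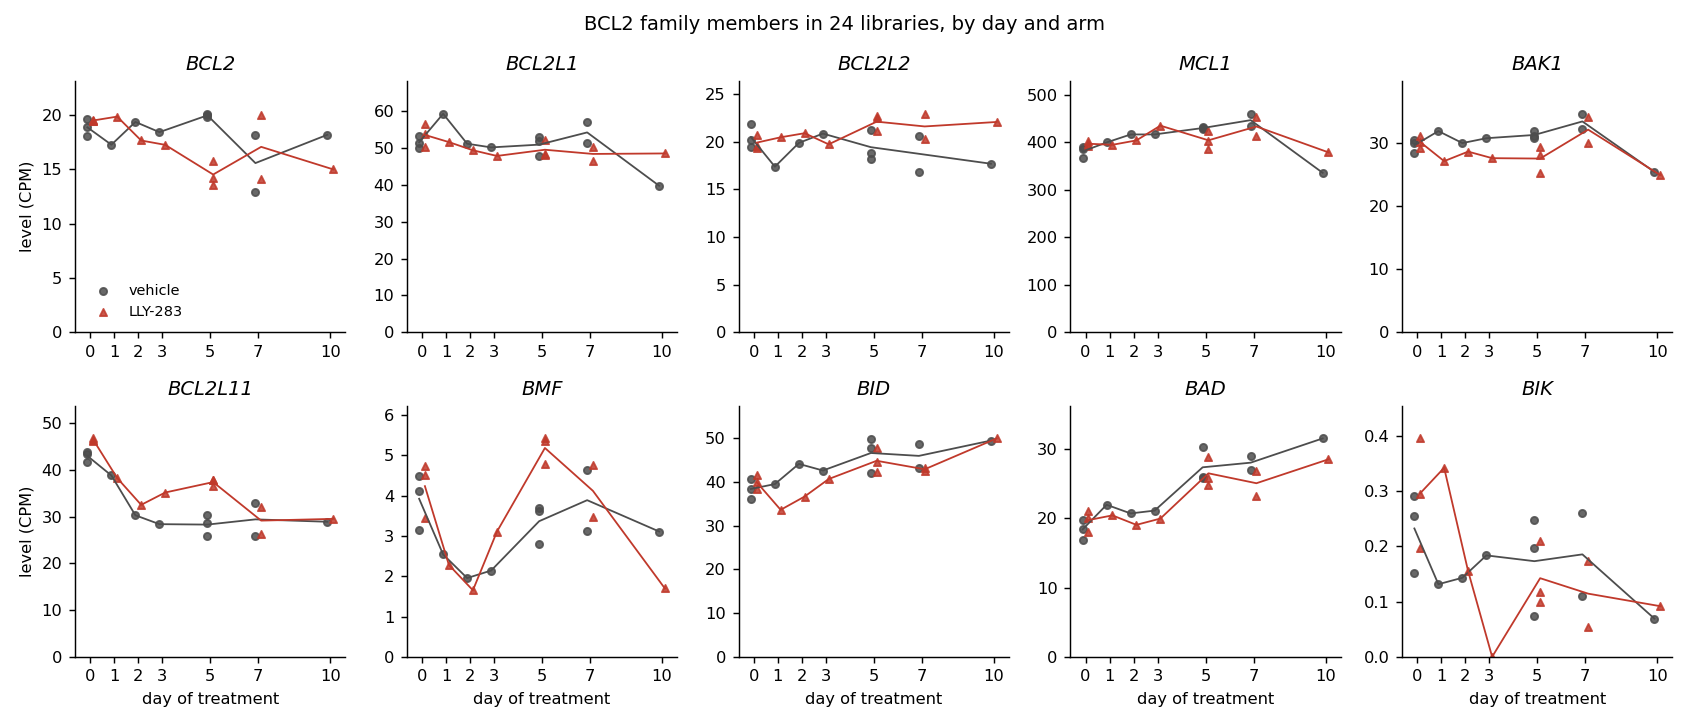
Level of each member in CPM against the day of treatment, from 0 on each vertical axis, with 1 point per library and lines through the group means, for vehicle (circles) and LLY-283 (triangles). BCL2 is lower and BCL2L11 and BMF are higher with LLY-283 at day 5. BAD is higher at day 5 than at days 0 to 3 in both groups. The 2 repeats of day 7 lie far apart for BCL2, BCL2L11 and BMF.

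The comparison of LLY-283 with vehicle at day 5 asks which transcripts differ after PRMT5 inhibition, and of the days after day 0 it is the one with the most libraries. Of the 9 members tested, 3 passed an adjusted p of 0.01: the guardian BCL2 was lower, and the BH3-only genes BCL2L11 and BMF were higher. Over all 16491 genes tested, 26.1% were called, 12% higher and 14.1% lower, so the share of members called was close to that of genes at large. The median log2 fold change of the 9 members was -0.020, and that of all genes was 0.0206. Scaled over the day 5 libraries alone, the 3 libraries of each group did not overlap for 6 members, and for 46.7% of all genes.

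BCL2, the founding guardian of the family, stood at 20, 20.1 and 19.8 CPM in the vehicle libraries and at 15.8, 14.2 and 13.6 CPM in the LLY-283 libraries of day 5. All LLY-283 libraries were below all vehicle libraries. The log2 fold change was -0.44 (SE 0.080, 95% confidence interval -0.60 to -0.27, adjusted p = 7.6e-05), a level 0.738 times that of vehicle. BCL2 remained called in all 14 alternatives, with log2 fold changes from -0.51 to -0.40. Its highest adjusted p, 0.009 and near the threshold, came from the edgeR fit shared by the 22 libraries of days 0 to 7. Without both day 7 repeat 2 libraries that shared fit gave an adjusted p of 1.4e-05.

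BCL2L11, which encodes BIM, the BH3-only protein that binds every guardian, stood at 26, 28.6 and 30.3 CPM in vehicle and at 37.8, 36.6 and 37.8 CPM in LLY-283. The groups were separate. The log2 fold change was 0.43 (SE 0.062, 95% confidence interval 0.30 to 0.56, adjusted p = 2.9e-06), a level 1.35 times that of vehicle, and the call held in all 14 alternatives with log2 fold changes from 0.36 to 0.48. In the edgeR fit shared by the 22 libraries of days 0 to 7 the adjusted p was 0.0021, and 2.7e-06 without both day 7 repeat 2 libraries.

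BMF, a BH3-only protein that is tethered to the myosin motor complex, was at 2.79, 3.61 and 3.69 CPM in vehicle and at 5.42, 4.79 and 5.35 CPM in LLY-283. The groups were separate, at counts that are the lowest of the tested members. The log2 fold change was 0.65 (SE 0.17, 95% confidence interval 0.31 to 0.99, adjusted p = 0.0025). The call depended on the processing more than the other 2, and the adjusted p was 0.035 without vehicle repeat 1, 0.011 without LLY-283 repeat 1, 0.013 without LLY-283 repeat 3, 0.017 with DESeq2 and 0.03 in a fit shared by the 22 libraries of days 0 to 7. Without the 2 day 7 libraries of repeat 2, that shared fit gave an adjusted p of 0.0071. The call held in this and 8 other alternatives, including that without vehicle repeat 3, the library with the high collagen level, at an adjusted p of 0.0049.

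The other guardians gave smaller differences. BCL2L2 had 18.2, 21.3 and 18.8 CPM in vehicle and 22.7, 21.1 and 22.5 CPM in LLY-283. On this scale of all 24 libraries the lowest LLY-283 library lay just below the highest vehicle library, and scaled over the day 5 libraries alone the groups were separate. Its log2 fold change was 0.21 (SE 0.076, adjusted p = 0.029), which does not pass. BCL2L1 was at 47.9 to 52.9 CPM in vehicle and 48.1 to 52.1 CPM in LLY-283, with a log2 difference of -0.018 (95% confidence interval -0.12 to 0.088, adjusted p = 0.81). MCL1 was at 429 to 432 CPM in vehicle and 386 to 425 CPM in LLY-283, a log2 difference of -0.065 (95% confidence interval -0.14 to 0.0075, adjusted p = 0.16). The intervals of BCL2L1 and MCL1 leave room for differences of no more than 0.14 on the log2 scale in either direction.

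Of the other members, BAK1, the effector that sits in the outer mitochondrial membrane, was at 30.7 to 31.9 CPM in vehicle and 25.1 to 29.3 CPM in LLY-283, a log2 difference of -0.16 (SE 0.064, adjusted p = 0.047) that does not pass. BID, the BH3-only protein cut by caspase-8, was at 42.2 to 49.9 CPM in vehicle and 42.3 to 47.9 CPM in LLY-283, with an interval of -0.16 to 0.098 for the log2 difference (adjusted p = 0.74). BAD, the BH3-only protein that survival kinases phosphorylate, was at 25.8 to 30.4 CPM in vehicle and 24.7 to 28.9 CPM in LLY-283, with an interval of -0.17 to 0.13 (adjusted p = 0.85). BIK was at 0.0739 to 0.248 CPM in vehicle and 0.1 to 0.21 CPM in LLY-283, too few counts to test.

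**Figure D3:**
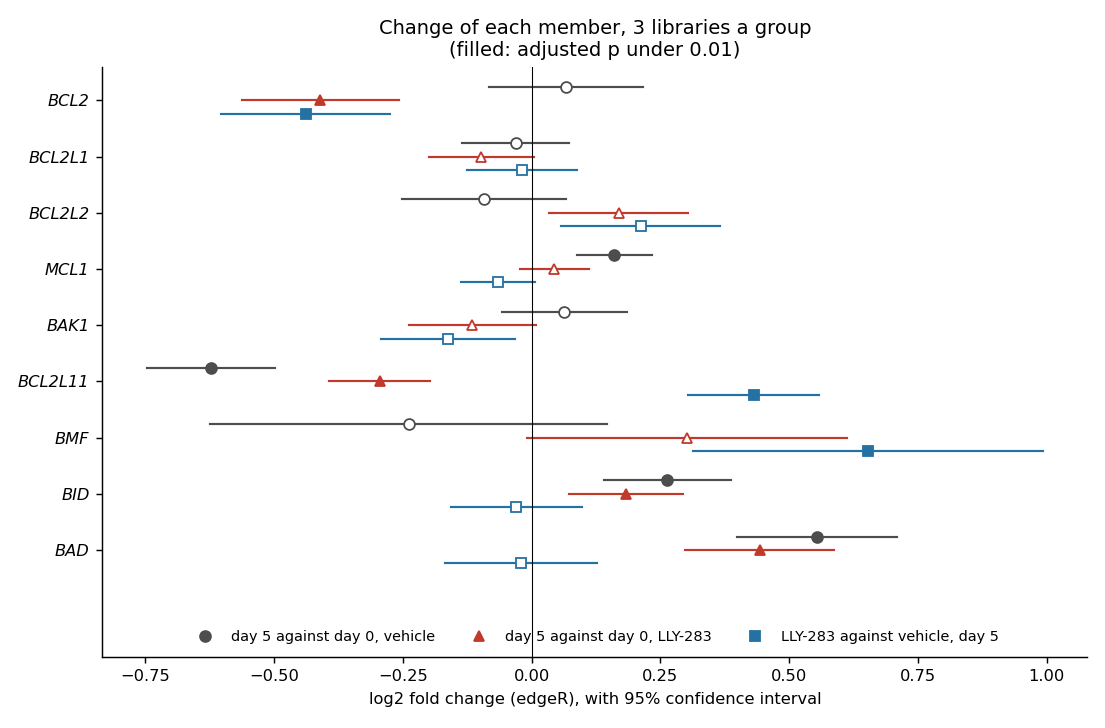
Log2 fold change of the 9 tested members with 95% confidence intervals for day 5 against day 0 in vehicle, day 5 against day 0 in LLY-283, and LLY-283 against vehicle at day 5, with 3 libraries a group, filled where the adjusted p is under 0.01. BCL2L11 falls with time by 0.62 in vehicle and by 0.30 in LLY-283, BCL2 falls by 0.41 in LLY-283 beside a change of 0.067 in vehicle that does not pass, and BAD rises in both.

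At day 0 no member was called by edgeR, and over all genes 0.0169% were called. BCL2L11 was the single member with an unadjusted p under 0.05, against 1012 of 17780 genes, and DESeq2 called no member either. Its levels were 43.4, 41.8 and 43.8 CPM in vehicle and 46.3, 46.4 and 46.7 CPM in LLY-283, so that the groups did not overlap at the first time point. Over all genes, 11.2% had groups that did not overlap at day 0, and 2 of the 9 members, BCL2L11 and MCL1. The log2 difference of BCL2L11 at day 0 was 0.10 (SE 0.045, adjusted p = 0.86), in the direction of that at day 5. BCL2 was at 18 to 19.7 CPM in vehicle and at 19.5 CPM in all 3 LLY-283 libraries, a log2 difference of 0.034 (adjusted p = 0.95).

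From day 0 to day 5 the vehicle cultures themselves changed, and 4 of 9 members were called, against 38.9% of all genes. BCL2L11 fell by 0.62 on the log2 scale (SE 0.061, adjusted p = 1.4e-09), from 41.8 to 43.8 CPM at day 0 to 26 to 30.3 CPM at day 5. BAD rose by 0.55 (SE 0.076, adjusted p = 6.4e-07), from 16.9 to 19.8 CPM to 25.8 to 30.4 CPM. BID rose by 0.26 (SE 0.060, adjusted p = 0.00065) and MCL1 by 0.16 (SE 0.036, adjusted p = 0.00044). Scaled over the vehicle libraries of days 0 and 5 alone, the groups did not overlap for these 4 genes and BAK1, 5 of 9 members against 57.2% of all genes. On the scale of all 24 libraries BCL2 was separate as well, at 18 to 19.7 CPM at day 0 and 19.8 to 20.1 CPM at day 5. The numbering of the libraries runs from 37 to 48 for days 0 to 3 and from 1 to 12 for days 5 to 10. Between day 0 and day 5, a batch of that kind and the day can therefore not be told apart. Within the run of 37 to 48, BCL2L11 in vehicle stood at 38.8, 30.3 and 28.4 CPM at days 1, 2 and 3. BAD on these days stood at 21.95, 20.7 and 21.11 CPM in vehicle. In LLY-283 it stood at 20.42, 19.05 and 19.96 CPM. These BAD values are all below the day 5 range of their own group.

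In the LLY-283 cultures 4 of 9 members were called between day 0 and day 5, against 42.4% of all genes. BCL2 fell by 0.41 (SE 0.074, adjusted p = 4.7e-05), from 19.5 CPM in each library at day 0 to 13.6 to 15.8 CPM at day 5. BCL2L11 fell by 0.30 (SE 0.047, adjusted p = 9.9e-06), from 46.3 to 46.7 CPM to 36.6 to 37.8 CPM. BAD rose by 0.44 (SE 0.070, adjusted p = 8.8e-06). BID rose by 0.18 (SE 0.053, adjusted p = 0.0055), a call that was lost without LLY-283 repeat 2 of day 0 (adjusted p = 0.041), without repeat 3 of day 0 (0.021), without repeat 2 of day 5 (0.063), with DESeq2 (0.046) and in the fit shared by 22 libraries (0.07, and 0.029 without both day 7 repeat 2 libraries). MCL1 had a log2 difference of 0.044 (adjusted p = 0.28) and BMF of 0.30 (adjusted p = 0.099), neither of which passes. Scaled over the LLY-283 libraries of days 0 and 5 alone, the groups did not overlap for 6 of 9 members, against 57.7% of all genes.

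The change over 5 days was then compared between the groups in a model of the 12 libraries of days 0 and 5, which subtracts what differed at day 0. The treatment groups changed differently for 2 of 9 members, against 14.9% of all genes. For BCL2 the change in LLY-283 was lower than that in vehicle by a log2 difference of -0.47 (SE 0.098, 95% confidence interval -0.67 to -0.27, adjusted p = 0.00071). For BCL2L11 it was higher by 0.33 (SE 0.075, 95% confidence interval 0.18 to 0.49, adjusted p = 0.0014): its RNA fell in both groups, and it fell less with LLY-283. The call for BCL2L11 was lost without vehicle repeat 1 of day 5 (adjusted p = 0.012) and with DESeq2 (adjusted p = 0.01 after rounding, above the threshold). BMF had a difference of 0.55 (SE 0.24, adjusted p = 0.096), BCL2L2 of 0.27 (SE 0.099, adjusted p = 0.048) and MCL1 of -0.11 (SE 0.048, adjusted p = 0.11), none of which passes.

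Days 1 to 3 have 1 library per group and day, and they were compared together with the day as a block. No member was called by edgeR or by DESeq2, and 0.0111% of all genes were called by edgeR. BID was the single member with an unadjusted p under 0.05, against 2936 of 18003 genes, at a log2 difference of -0.18 (SE 0.067, adjusted p = 0.24). It stood at 39.5, 44.2 and 42.6 CPM in vehicle and at 33.6, 36.7 and 40.7 CPM in LLY-283 at days 1, 2 and 3, lower in LLY-283 on each day. BCL2L11 stood at 38.8, 30.3 and 28.4 CPM in vehicle and at 38.3, 32.5 and 35.2 CPM in LLY-283 on these days. In vehicle it was thus within its day 5 range at day 3. The LLY-283 library was the higher at days 2 and 3, at day 2 by less than the counting error (log2 difference 0.10, counting interval -0.056 to 0.26). At day 3 the log2 difference was 0.31, with a counting interval of 0.14 to 0.48 that does not cover the spread between libraries.

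BMF in the same libraries stood at 2.54, 1.96 and 2.14 CPM in vehicle and at 2.28, 1.65 and 3.11 CPM in LLY-283. These 6 libraries were below every library of their own group at days 0 and 5, the lowest of which had 2.79 CPM in vehicle and 3.45 CPM in LLY-283. BCL2 was at 17.3, 19.4 and 18.4 CPM in vehicle and 19.9, 17.6 and 17.2 CPM in LLY-283, higher in LLY-283 at day 1 and lower at days 2 and 3, by less than the counting error on each day.

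At day 7 no member was called by label, by edgeR or by DESeq2, and edgeR called 0% of all genes; no member had an unadjusted p under 0.05, against 236 of 16826 genes. BCL2 was at 18.2 and 12.9 CPM in vehicle repeats 1 and 2 and at 14.1 and 20 CPM in LLY-283 repeats 1 and 2. BCL2L11 was at 26 and 32.9 CPM in vehicle and at 32 and 26.3 CPM in LLY-283. BMF was at 3.13 and 4.64 CPM in vehicle and at 4.77 and 3.48 CPM in LLY-283. For all 3 genes repeat 1 had the order of the groups seen at day 5, and repeat 2 had the opposite order. Between the repeat 1 libraries alone, the log2 difference was -0.36 for BCL2 (counting interval -0.60 to -0.13), 0.30 for BCL2L11 (0.13 to 0.48) and 0.60 for BMF (0.12 to 1.09), with no replicate behind them. Between the repeat 2 libraries it was 0.63 for BCL2 (counting interval 0.39 to 0.86), -0.32 for BCL2L11 (-0.495 to -0.147) and -0.42 for BMF (-0.89 to 0.055). Without both repeat 2 libraries, in the shared fit that takes the spread from the other days, edgeR called no member at day 7 and 920 genes in all.

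The test of whether the treatment difference varied with the day over the 22 libraries of days 0 to 7 called no member, and 0.0289% of all genes. The unadjusted p was 0.026 for BCL2 and 0.031 for BCL2L11, and DESeq2 called no member. With days 0 to 5 only, BCL2 (adjusted p = 0.0021) and BCL2L11 (adjusted p = 0.0057) were called, and without both repeat 2 libraries of day 7, a choice made after the values were seen, BCL2 was called (adjusted p = 0.002) and BCL2L11 was not (adjusted p = 0.017).

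Day 10 has 1 library per group, so it gives values with no test. BCL2 was at 18.2 CPM in vehicle and 15 CPM in LLY-283, in the order of day 5. BCL2L11 was at 28.9 and 29.5 CPM, which are not apart within counting error. BMF was at 3.11 CPM in vehicle and 1.7 CPM in LLY-283, the opposite order to day 5. MCL1 was at 336 CPM in vehicle, the lowest of all 24 libraries, and at 379 CPM in LLY-283, while BAD reached 31.5 and 28.5 CPM and BID 49.5 and 50 CPM.

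The ratio of BCL2L11 to BCL2 counts in a library needs no scaling between libraries, and since both genes were picked after their differences were known it is given as a description. At day 0 it was 2.12 to 2.43 in vehicle and 2.37 to 2.4 in LLY-283. At day 5 it was 1.3, 1.42 and 1.53 in vehicle and 2.39, 2.58 and 2.79 in LLY-283. Vehicle had thus dropped below its own day 0 range, and the LLY-283 libraries were at or above theirs. In the single libraries of days 1, 2 and 3 it was 2.25, 1.56 and 1.54 in vehicle and 1.93, 1.84 and 2.04 in LLY-283. At day 7 repeats 1 and 2 gave 1.43 and 2.54 in vehicle and 2.26 and 1.32 in LLY-283, and day 10 gave 1.59 and 1.97.

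**Figure D4:**
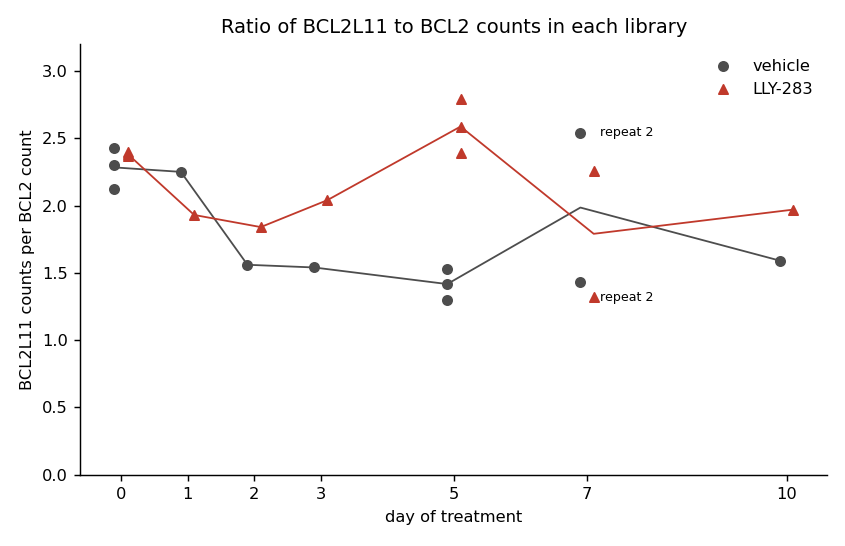
BCL2L11 counts per BCL2 count in each of the 24 libraries against the day of treatment, with lines through the group means, for vehicle (circles) and LLY-283 (triangles). At day 5 the vehicle libraries lie at 1.3 to 1.53 and the LLY-283 libraries at 2.39 to 2.79, and at day 7 the 2 libraries marked repeat 2 lie on the other group's side.

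The rest of the family was read from a list of 13 genes, of which 10 were tested at day 5, with 3 called higher and 2 lower (median log2 fold change 0.24). BAX, the effector that moves from the cytosol to mitochondria and a known p53 target, rose from 70.3 ± 2.31 to 95.8 ± 3.44 CPM (SD, n = 3; log2 fold change 0.47, SE 0.043, adjusted p = 1.8e-09). HRK, a BH3-only gene of neural cells, was higher by 0.41 (SE 0.10, adjusted p = 0.002) and BNIP3L, a mitophagy receptor, by 0.21 (SE 0.059, adjusted p = 0.0047). BCL2L12 was lower by 0.34 (SE 0.068, adjusted p = 0.00025) and BNIP3, another mitophagy receptor, by 0.21 (SE 0.053, adjusted p = 0.0024). These are differences from vehicle at day 5 and not changes over time. The p53 target BBC3, which encodes PUMA, had a log2 difference of 0.27 (adjusted p = 0.018), BOK of -0.33 (adjusted p = 0.015), BCL2L13 of -0.048 (adjusted p = 0.4) and BCL2L15 of 0.36 (adjusted p = 0.22). BCL2A1 had 0.93 on low counts (SE 0.28, adjusted p = 0.01 after rounding, above the threshold). None of these 5 passes. PMAIP1, which encodes NOXA, the BH3-only partner of MCL1, was under the filter with at most 0.148 CPM at day 5, as were BCL2L10 and BCL2L14.

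From the apoptosome and caspase list, 3 of the 11 genes reported were called, with 1 higher and 2 lower (median -0.023). CASP2 was lower by 0.23 (SE 0.039, adjusted p = 3e-05) and CYCS, which encodes cytochrome c, by 0.21 (SE 0.038, adjusted p = 7.4e-05). The gene that was higher is CASP9, the initiator caspase of the apoptosome, at 0.70 (SE 0.21, adjusted p = 0.0086), named after its value was seen. Its adjusted p is near the threshold and its level is low, at a mean of 2.15 CPM in vehicle and 3.44 CPM in LLY-283. At day 0 the means of CASP9 were 3.66 CPM in vehicle and 4.21 CPM in LLY-283. Of 7 inhibitors of apoptosis tested, 2 were higher and 1 was lower (median 0.048). NAIP was higher by 0.53 (adjusted p = 1.2e-05) and BIRC2 by 0.22 (adjusted p = 0.00018). BIRC5, which encodes survivin and is also a gene of dividing cells, was lower by 0.40 (adjusted p = 1.4e-09). From day 0 to day 5 the mean of BIRC5 went from 116.1 to 192 CPM in vehicle and from 122.1 to 142.9 CPM in LLY-283. NAIP has near-identical copies in the genome, so its counts are uncertain. BIRC3 had 0.77 on low counts (adjusted p = 0.053).

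Of 21 genes that regulate the BH3-only proteins or MCL1, 10 were called, 3 higher and 7 lower (median -0.062). DYNLL1, a dynein light chain that binds BIM, was lower by 0.22 (adjusted p = 1.9e-05). The 14-3-3 genes YWHAH and YWHAG, whose proteins hold phosphorylated BAD in the cytosol, were lower by 0.27 (adjusted p = 2.9e-06) and 0.19 (adjusted p = 6.4e-05). PIM3, a kinase of BAD, was lower by 0.25 (adjusted p = 4.7e-05). The FOXO genes, named after their values were seen, did not differ in the same direction. FOXO1 was lower by 0.25 (adjusted p = 0.00012), and FOXO3 was higher by 0.17 (adjusted p = 0.0079) with overlapping groups. FOXO4 was higher by 0.95 (adjusted p = 0.0018), beside 1.55 ± 0.138 CPM in vehicle. FBXW7, a ubiquitin ligase subunit that acts on MCL1 and is likewise named after its value was seen, was higher by 0.21 (adjusted p = 0.00078). Of 12 mitochondrial partners, 4 were lower and 0 higher by edgeR (median -0.078). VDAC3 was lower by 0.24 (adjusted p = 3e-05) and VDAC2, the channel that holds BAK, by 0.16 (adjusted p = 0.00099). SLC25A5 was lower by 0.16 (adjusted p = 0.0011) and MTCH2, a docking protein for cleaved BID, by 0.13 (adjusted p = 0.0044). Read against 26.1% of all genes called at day 5, these are counts of the lists and not tests of them.

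**Figure D5:**
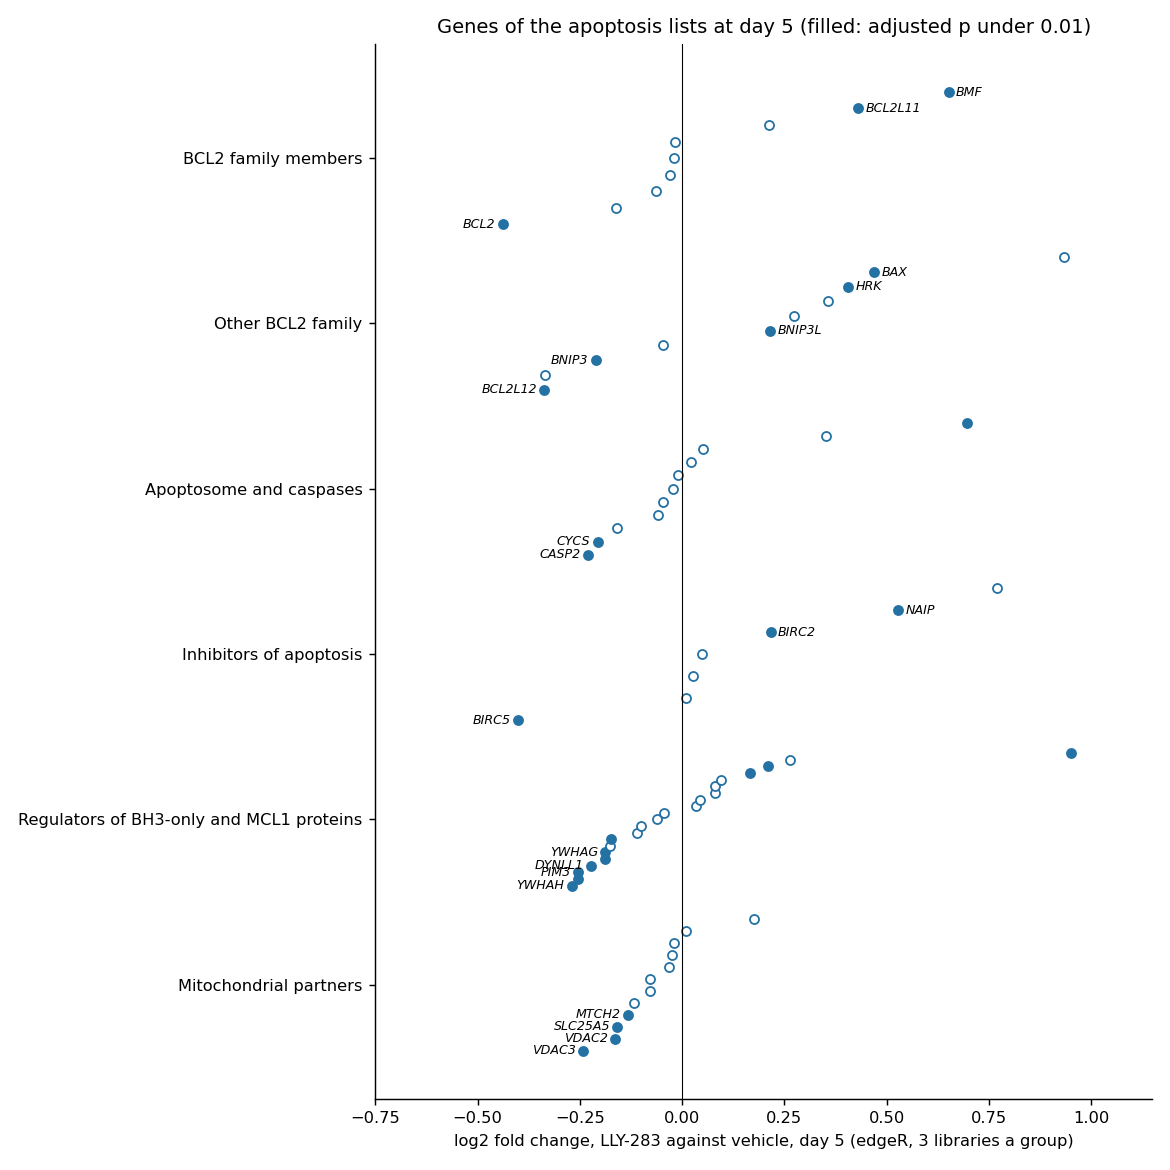
Log2 fold change of LLY-283 against vehicle at day 5 (horizontal axis, 3 libraries a group) for each tested gene of the 10 members and of 5 further lists, with filled points at an adjusted p under 0.01 and the names of those given by the naming rule. BCL2 is the lowest of the members and BMF the highest, BAX and HRK lead the called genes of the other BCL2 family, and all 4 called mitochondrial partners lie below 0.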

How the data were processed

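Per the labels and the methods of the study, poly(A) RNA of HSJD-DIPG-007 cells was sequenced from a directional kit. After trimming, the authors pseudoaligned the reads to hg38 transcripts with kallisto (version not given in the sources used here), and they deposited estimated counts per gene as whole numbers without normalization. All 24 columns were used, and 58207 of 58676 identifiers were matched to a symbol of GENCODE on GRCh38.

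Counts were tested with edgeR 4.0.16 in R 4.3.3 (limma 3.58.1), with TMM scaling, the filter on low counts by design, robust quasi-likelihood tests over all genes and Benjamini-Hochberg adjustment, at a threshold of 0.01. The alternatives were DESeq2 1.42.0, the tool of the authors, and other settings within edgeR. Those were the size factors of DESeq2, scaling by library size only, testing every gene with a count and requiring 10 counts in each library. Further ones were blocking on the repeat number, fitting 22 libraries together (also without both day 7 repeat 2 libraries), a threshold of 0.05 and omitting each library in turn. For days 1 to 3 each day was omitted instead. For the variation of treatment with day, only libraries of days 5 and 7 were omitted in turn. A library left alone in its group was taken to have the spread of the other group. Totals of 13835205 to 23190369 counts set the precision, and intervals of single libraries and the limit of 3 counts for a count of 0 cover counting error only. Fits were also run on simulated counts drawn with the spread estimated from these same libraries. That is a check of the fitting and cannot show how the tests behave where repeats disagree, as at day 7. Repeats with the same number did not deviate together (correlations of -0.0403 to 0.0155 at day 5), so they were not paired.

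The members, gene lists and motifs were chosen with earlier results of these data known. All members and all tested genes of the rest of the family are named, and of each other list the 4 with the smallest p at day 5, except genes of the apoptosome and caspase list that are not reported here. Columns for the day 10 libraries entered no test. Protein sequences were not used here.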

Additional observations from a re-analysis of the deposited data

Results flagged for a closer look

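The change from day 0 to day 5 differed between LLY-283 and vehicle for 16 of the genes named by the rule above. The test was of that difference itself (edgeR, 12 libraries, adjusted p under 0.01). Genes named after their values were seen (CASP9, FOXO1, FOXO3, FOXO4 and FBXW7) are left out here, whether or not they passed. Of the 21 regulators 7 passed, 1 higher and 6 lower, so the 16 are not all the listed genes that passed. The values that follow are the LLY-283 change less the vehicle change on the log2 scale. Among the members these were BCL2 at -0.47 and BCL2L11 at 0.33. In the rest of the family they were BAX at 0.48, HRK at 0.46 and BCL2L12 at -0.38. Among the caspases and the inhibitors of apoptosis they were CASP2 at -0.19, BIRC5 at -0.46, NAIP at 0.59 and BIRC2 at 0.28. Among the regulators and the mitochondrial partners they were DYNLL1 at -0.28, YWHAH at -0.32, YWHAG at -0.23, PIM3 at -0.25, VDAC3 at -0.28, VDAC2 at -0.20 and SLC25A5 at -0.20. Over all genes tested, 14.9% passed the same test. Those of the 16 outside the BCL2 family were picked by the smallest p at day 5, from libraries that this test uses again. The count of 16 can therefore not be set against that share.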

How the results depend on the processing

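The count of members called at day 5 (3) was 5 at an adjusted p under 0.05, and lay between 2 and 3 when 1 library was left out. For the difference of the changes from day 0 to day 5 (2) it was 1 with DESeq2 and between 1 and 2 with 1 library left out. For the variation of treatment with day (0) it was 2 with days 0 to 5 only and 1 without both day 7 repeat 2 libraries. Some of these alternatives hold fewer samples or another threshold; for DESeq2 the cause was not tested. Of 247 values under an alternative, 103 were counts of members called that equalled the reported count, and 13 such counts differed from it by at most 1.5 times and 5 by more. Many of the 103 were counts of 0 at day 0, at day 7, at days 1 to 3 and for the variation of treatment with day. There edgeR called 0% to 0.0289% of all genes with the reported settings, so equal counts of 0 say little about the members. Among the 13, the count at day 5 was 2 with DESeq2 and in the fit shared by 22 libraries, that of the LLY-283 change over time (4) was 3 with DESeq2 and in both shared fits, between 3 and 4 with 1 library left out, and 5 at an adjusted p under 0.05, and that of the difference of the changes was 3 at 0.05. Of the other values, 5 values of BMF at day 5 no longer passed, and 6 differences near 0 changed sign. Those were BCL2L1 (0.0102) and BAD (0.0083) with library size alone, BID between -0.11 and 0.0136 and BAD between -0.088 and 0.0517 with 1 library left out, and none of these was called. With the repeat number as a block, 3 members were called at day 5, 0 at day 0, 0 at day 7, 4 over time in each group and 2 for the difference of the changes, and no call of a member changed. Days 1 to 3 have 1 library per day and group, so no such block was fitted. At day 7, where deviations of same-numbered libraries correlated at -0.165, the crossed pairing, added after the values were seen, called 0 members and 36 genes in all, against 0 genes without it. The shared fit without both day 7 repeat 2 libraries was likewise added after the values were seen. Depth limits BMF (32 to 107 counts) and BIK (0 to 7 counts) most.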
